A study of Mus musculus with 6 samples.

Results

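The genes of the oligodendrocyte lineage were examined in mouse primary neuronal cultures depleted of *Pla2g4e*, the gene of a calcium-dependent N-acyltransferase. The lineage was represented by 9 genes of the 55357 in the count data, selected by symbol and kept in 2 classes. The 5 progenitor genes were *Olig1*, *Olig2*, *Sox10*, *Pdgfra* and *Cspg4*, and the 4 myelin genes were *Mbp*, *Mog*, *Mag* and *Cnp*. All 9 passed the filter of at least 6 reads in at least 1 library. Wild type cells from cortex and hippocampus of C57BL/6N embryos (E18) were transduced with lentivirus at DIV4 and collected at DIV14. The 3 shCtrl libraries came from cultures that received a scrambled shRNA, and the 3 sh*Pla2g4e* libraries came from cultures that received the sh2 sequence against *Pla2g4e*, with the same amount of virus in both groups. No library here came from untransduced cells and a single *Pla2g4e* shRNA was sequenced, so that the effect of losing *Pla2g4e* cannot be told apart from other effects of sh2. The labels do not say whether the libraries of a group came from separate cultures, and the p-values measure only the spread between these libraries.

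Oligodendrocytes wrap axons in myelin, and they arise from progenitors that still divide. *Olig1* and *Olig2* encode bHLH transcription factors, and the latter is needed for the lineage to form. *Sox10* encodes an HMG-box factor that is present from the progenitor to the myelinating cell and acts on the promoters of myelin genes. *Pdgfra* encodes the PDGF receptor alpha, through which PDGF-A keeps progenitors dividing, and *Cspg4* encodes the proteoglycan NG2. *Mbp* and *Cnp* encode proteins at the cytoplasmic face of the myelin membrane, whereas *Mag* and *Mog* encode adhesion and surface glycoproteins, the last of them a late marker of maturation. Embryonic neuronal cultures carry such cells as a minor fraction beside neurons and astrocytes.

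The sh2 sequence is shown because its seed, bases 2 to 8 of the antisense strand, can pair with mRNAs other than its target, and the members differ in whether they hold the matching letters GTGGCCA. In the antisense strand the capitals mark the seed, and in all other lines they mark the matching letters, shown for transcripts with the 7 bases on either side.
sh2 antisense strand: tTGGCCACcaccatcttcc
sh2 sense strand: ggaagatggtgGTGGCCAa
*Cspg4* 3′ UTR: caccctgGTGGCCAtgctctc
*Cspg4* coding sequence, first site: cccgtttGTGGCCAcacgcca
*Cspg4* coding sequence, next site: cttccgaGTGGCCAtccagcc
*Pdgfra* coding sequence: gaagacaGTGGCCAttacacc
*Sox10* coding sequence: cctggctGTGGCCAgtggaca
The sites were read from the sense strand of GENCODE vM21 transcripts on GRCm38. That of the *Cspg4* 3′ UTR lies at 56899512 to 56899518 of chromosome 9, and those of its coding sequence at 56887956 to 56887962 and at 56888022 to 56888028, all on the plus strand. The *Pdgfra* site lies at 75173433 to 75173439 of chromosome 5 (plus strand) and the *Sox10* site at 79156357 to 79156363 of chromosome 15 (minus strand). *Olig1*, *Olig2*, *Mog*, *Mag* and *Cnp* held the 7 letters in neither the 3′ UTR nor the coding sequence. *Mbp* held them 2 times in the 3′ UTR of an annotated transcript other than its longest coding one. A site in a 3′ UTR of any coding transcript was therefore present in 1 of the 5 progenitor genes and 1 of the 4 myelin genes, against 14.6% of the 15695 tested genes with such a region. A match of letters is a description and not a site of action.

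Each shCtrl library held 20387986 to 22561667 counted reads and each sh*Pla2g4e* library 17054717 to 23570180, with replicate 3 the shallowest of the latter. Values are CPM (counts scaled to the size of the library after TMM normalization), and a DEG is a gene that passed an adjusted p of 0.01 by edgeR's quasi-likelihood test over 21876 genes. *Pla2g4e* had 50.5% of its shCtrl level left in sh*Pla2g4e* cultures. In both groups the lineage was a small share of bulk RNA from mixed cells, in which fewer cells of a type and less RNA per cell cannot be told apart. The labels call the cultures neuronal, and 12 neuron markers summed to 6130.3 to 6673.5 CPM in shCtrl and 5058.3 to 5576.4 CPM in sh*Pla2g4e* libraries. The 12 astrocyte markers summed to 2997.9 to 3828.6 and 2064.5 to 3263.6 CPM, highest in sh*Pla2g4e* replicate 3 within that group. Same-numbered libraries of both groups deviated together, so that the replicate number was also fitted as a block.

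Set against gene length (RPKM, the only scale on which genes are compared with one another), *Olig1* led the members in shCtrl cultures. It stood at 33.5 RPKM, above 93.8% of the tested genes, followed by *Olig2* at 19.6 and *Mbp* at 17.4 RPKM. *Sox10*, *Cnp* and *Pdgfra* formed a middle step at 13.2, 13 and 11.8 RPKM. *Cspg4* lay lower at 3.71 RPKM, and *Mog* and *Mag* were last at 2.72 and 2.09 RPKM, near the median of the tested genes. Of the neighbours in this order, *Olig2* and *Mbp*, *Sox10* and *Cnp*, *Cnp* and *Pdgfra*, and *Mog* and *Mag* overlapped between the 3 shCtrl libraries. In sh*Pla2g4e* cultures *Olig1* was again first, at 30.6 RPKM, and *Mog* and *Mag* last, at 3.51 and 2.49 RPKM. *Mbp* (18 RPKM) then stood above *Olig2* (15.1 RPKM). The *Mbp* locus also gives the golli transcripts, which are made outside myelin, and the counts hold all transcripts of the gene together.

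None of the 5 progenitor genes was a DEG, and they did not share a direction: *Sox10*, *Pdgfra* and *Cspg4* were higher and *Olig1* and *Olig2* lower in sh*Pla2g4e* cultures. The background in this comparison was 6.49% of all genes tested. At an unadjusted p of 0.05, 1 of the 5 passed, against 25.7% of all genes, and both limma after voom and DESeq2 called none of them. *Olig2* passed the threshold with the replicate block and when no filter was applied.

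*Olig2* (ENSMUSG00000039830.10, chromosome 16, 91022345 to 91025565, plus strand, GRCm39 as for all genes here) stood at 38.2, 52.4 and 58.4 CPM under shCtrl and at 31.5, 43.6 and 39.8 CPM under sh*Pla2g4e*, values being given in the order of replicates 1 to 3 throughout. It was lower in the sh*Pla2g4e* library of each number, while the groups overlapped, since sh*Pla2g4e* replicates 2 and 3 lay above shCtrl replicate 1. The mean (± SD, n = 3) was 49.7 ± 10.4 CPM under shCtrl and 38.3 ± 6.16 CPM under sh*Pla2g4e*, a log2 difference (sh*Pla2g4e* over shCtrl) of −0.38 (standard error 0.14, 95% interval −0.68 to −0.08, adjusted p = 0.0964 by edgeR). With the replicate block the adjusted p was 5.28e-04, at a log2 difference of −0.37, and the differences within numbers 1, 2 and 3 were −0.28, −0.27 and −0.55 on the log2 scale. With the block, 9.02% of all genes tested were down-regulated. Without replicate 3 of both groups the blocked adjusted p was 0.0502, and without replicate 1 or 2 it was 0.0016 or 0.00395. Without the block it ranged from 0.00291, when no filter was applied, to 0.349.

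*Olig1* (ENSMUSG00000046160.7, 91066660 to 91068821 of chromosome 16, plus strand), the neighbour of *Olig2*, stood at 64.2, 77.2 and 76.0 CPM under shCtrl and at 51.3, 66.6 and 80.6 CPM under sh*Pla2g4e*. It was lower in replicates 1 and 2 and higher in replicate 3, which was the highest library of all 6. The log2 difference was −0.13 (standard error 0.13, 95% interval −0.41 to 0.14, adjusted p = 0.575 by edgeR), and it was 0.023 without sh*Pla2g4e* replicate 1. Exons of another gene lie opposite to 7.26% of its exon bases, and their reads were not kept apart.

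*Sox10* (chromosome 15, 79039108 to 79049440, minus strand) stood at 34.8, 37.5 and 48.4 CPM under shCtrl and at 39.8, 59.1 and 37.1 CPM under sh*Pla2g4e*. The sh*Pla2g4e* libraries 1 and 3 lay within the shCtrl range, and replicate 2 lay above it. The mean (± SD, n = 3) was 40.3 ± 7.20 CPM under shCtrl and 45.3 ± 12 CPM under sh*Pla2g4e*, a log2 difference of 0.17 (standard error 0.15, 95% interval −0.16 to 0.50, adjusted p = 0.547 by edgeR). Without sh*Pla2g4e* replicate 2 the log2 difference was −0.07.

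Among the progenitor genes, those of the 2 surface proteins varied least between replicates. *Pdgfra* (chromosome 5, 75312953 to 75358876, plus strand) stood at 112.5, 113.6 and 129.6 CPM under shCtrl and at 119.0, 128.9 and 130.8 CPM under sh*Pla2g4e*. It was higher in all 3 numbers, by 0.080, 0.182 and 0.014 on the log2 scale, where the SD within shCtrl was 0.113. The groups overlapped, and the log2 difference was 0.09 (standard error 0.083, 95% interval −0.09 to 0.27, adjusted p = 0.562 by edgeR). *Cspg4* (chromosome 9, 56772317 to 56807154, plus strand) stood at 41.5, 43.7 and 47.7 CPM under shCtrl and at 46.6, 55.0 and 47.1 CPM under sh*Pla2g4e*. Its groups overlapped too, and the log2 difference was 0.16 (standard error 0.094, 95% interval −0.04 to 0.36, adjusted p = 0.310 by edgeR). *Cspg4* is also made by pericytes and *Pdgfra* by fibroblasts. The 10 mural cell markers summed to 55.8 to 95.5 CPM in shCtrl and 58.9 to 100.9 CPM in sh*Pla2g4e* libraries, with *Kcnj8* at 0 in all 6, and the 10 fibroblast markers to 116.9 to 153.2 and 120.3 to 181.7 CPM. Of the latter 8 were higher under sh*Pla2g4e*, none was a DEG, 4 passed an unadjusted p of 0.05 (25.7% of all genes) and 3 were up-regulated with the block, beside 15.5% of all genes (the collagen genes *Col6a3*, *Col1a1* and *Col1a2*). Without the block *Col6a3* was called when sh*Pla2g4e* replicate 3 was left out, and *Col1a1* and *Col1a2* when sh*Pla2g4e* replicate 1 was. With no filter 3 of the fibroblast markers were up-regulated, in a fit that called 2349 of 32161 genes. *Igfbp2* held most of their sum. The part of pericytes and fibroblasts in these levels was not tested.

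**Figure D1:**
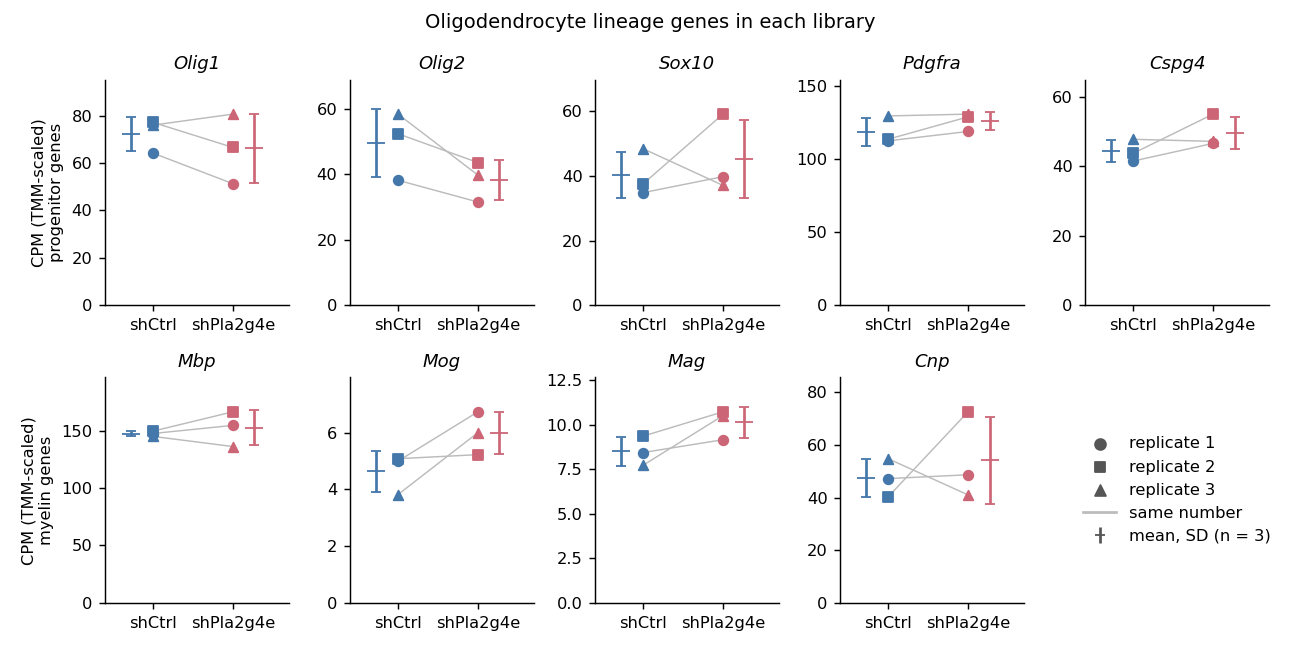
CPM after TMM scaling (y axis, linear and from 0) of the 9 lineage genes in each library, with the progenitor genes in the upper row and the myelin genes in the lower row. Symbols stand for replicate numbers, grey lines join libraries of the same number, and bars give the mean and SD of 3 libraries. Only *Mog* had sh*Pla2g4e* libraries that all lay above the shCtrl libraries, and *Olig2* fell along each of its 3 lines.

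All 4 myelin genes had means above those of shCtrl, and none was a DEG by edgeR, limma after voom or DESeq2 (0 of 4 also at an unadjusted p of 0.05). The log2 difference was smallest for *Mbp*, the most abundant of them per length, and lay between 0.19 and 0.37 for the other 3.

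*Mbp*, on chromosome 18, stood at 147.5, 149.5 and 145.0 CPM under shCtrl and at 154.6, 166.4 and 136.1 CPM under sh*Pla2g4e*. The shCtrl libraries were nearly level, and the sh*Pla2g4e* libraries lay on both sides of them. The log2 difference was 0.05 (standard error 0.084, 95% interval −0.13 to 0.23, adjusted p = 0.783 by edgeR), and −0.02 without sh*Pla2g4e* replicate 2. *Cnp* (chromosome 11, 100465730 to 100482555, plus strand) stood at 47.2, 40.3 and 54.7 CPM under shCtrl and at 48.6, 72.5 and 41.0 CPM under sh*Pla2g4e*. As for *Sox10*, replicate 2 alone lay above the shCtrl range. The log2 difference was 0.19 (standard error 0.16, 95% interval −0.15 to 0.53, adjusted p = 0.517 by edgeR), and −0.08 without that library. Of the exon bases of *Cnp*, 12.7% overlap *Dnajc7* on the other strand.

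The 2 late genes rested on few reads. *Mog* (chromosome 17, 37321635 to 37334290, minus strand) stood at 5.0, 5.08 and 3.82 CPM under shCtrl and at 6.73, 5.22 and 6.0 CPM under sh*Pla2g4e*. It was the only member whose groups did not overlap, with a narrow gap between the nearest libraries, where 30.0% of all genes tested did not overlap. With 86 reads in its lowest library and each mate counted by itself, counting alone gives an error of at least 10.8%. Its log2 difference was 0.37 (standard error 0.19, 95% interval −0.04 to 0.79, adjusted p = 0.249 by edgeR, 0.153 with the block). *Mag* (chromosome 7, 30598601 to 30614298, minus strand) stood at 8.44, 9.36 and 7.73 CPM under shCtrl and at 9.16, 10.7 and 10.5 CPM under sh*Pla2g4e*. It was higher in all 3 numbers, with a single shCtrl library reaching into the sh*Pla2g4e* range, and the log2 difference was 0.25 (standard error 0.15, 95% interval −0.06 to 0.57, adjusted p = 0.315 by edgeR).

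**Figure D2:**
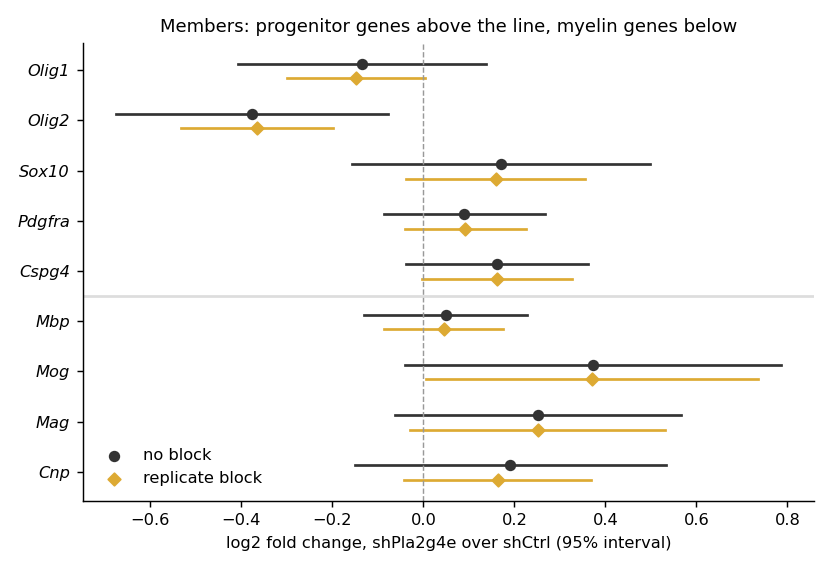
Log2 fold change of sh*Pla2g4e* over shCtrl (x axis) with its 95% interval for each of the 9 lineage genes, from edgeR without a block (grey circles) and with the replicate number as a block (yellow diamonds). Without the block only the interval of *Olig2*, from −0.68 to −0.08, does not reach 0, and with the block those of *Olig2* (−0.53 to −0.20) and *Mog* (0.0058 to 0.74) do not.

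Summed over the class, the progenitor genes stood at 291.2, 324.4 and 360.1 CPM under shCtrl and at 288.1, 353.2 and 335.4 CPM under sh*Pla2g4e*. The group means, 325.25 ± 34.5 and 325.59 ± 33.7 CPM (SD, n = 3 each), differed by far less than either SD. The myelin genes summed to 208.1, 204.2 and 211.3 CPM and to 219.1, 254.9 and 193.7 CPM, with sh*Pla2g4e* libraries both above and below all shCtrl libraries. The ratio of the myelin to the progenitor sum was 0.715, 0.630 and 0.587 in shCtrl and 0.760, 0.722 and 0.577 in sh*Pla2g4e* libraries. In both groups it was highest in replicate 1 and lowest in replicate 3. The sums weigh genes by their reads. Under shCtrl *Mbp*, with its golli transcripts, averaged 147.3 CPM of a myelin sum of 207.9 CPM, and *Pdgfra* 118.6 CPM of the progenitor sum. The median log2 difference was 0.09 for the progenitor genes and 0.22 for the myelin genes, beside 0.029 for all genes tested. Scaling by library size alone moved the latter to 0.10.

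The lineage genes differed in how far replicates spread. The within-group SD on the log2 scale was 0.334 for *Cnp*, 0.308 for *Sox10*, 0.279 for *Olig2* and 0.252 for *Olig1*, each above 94.5% or more of the 10957 genes whose log2 CPM averaged at least 3, where the median SD was 0.114. It was 0.118 for *Cspg4*, 0.104 for *Mbp* and 0.0955 for *Pdgfra*, close to that median. For *Cnp* and *Sox10* the widest gap within a group lay between sh*Pla2g4e* replicates 2 and 3. With replicate 3 of both groups left out and the block kept, both passed the threshold, with log2 differences of 0.43 for *Sox10* (adjusted p = 5.76e-04 by edgeR) and 0.45 for *Cnp* (adjusted p = 1.12e-04), and with replicate 2 of both groups left out they stood at −0.10 and −0.18.

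Among the lineage lists, the same 2 libraries stood furthest apart in genes of the newly formed oligodendrocyte, the stage between progenitor and myelinating cell, a comparison chosen after the values were seen. *Bcas1*, a marker of oligodendrocytes that begin to myelinate, stood at 49.5, 45.5 and 54.3 CPM under shCtrl and at 59.9, 109.9 and 27.8 CPM under sh*Pla2g4e*. *Myrf*, the transcription factor that turns on myelin genes, had 15.7, 13.5 and 16.1 CPM and 16.8, 29.3 and 7.03 CPM. *Enpp6*, a choline phosphodiesterase, had 11.4, 11.1 and 13 CPM and 10.8, 14.7 and 5.48 CPM. In each of the 3, sh*Pla2g4e* replicate 2 was the highest and replicate 3 the lowest of the 6 libraries. All 7 genes of this list were higher in replicate 2 than in replicate 3 of sh*Pla2g4e*, with a median log2 ratio of 1.43, whereas between shCtrl replicates 2 and 3 the median was −0.136 and 1 of 7 was higher. Other stages were mixed, with 11 of 17 other progenitor genes and 11 of the 17 other myelin genes that had reads in every library higher in replicate 2. *Gpr17*, a receptor of committed progenitors, was 3.67-fold, *Fa2h*, a fatty acid hydroxylase of myelin lipids, 4.32-fold, *Cnp* 1.77-fold and *Sox10* 1.6-fold higher in sh*Pla2g4e* replicate 2 than in replicate 3. *Mal* and *Mobp*, genes of compact myelin at low counts, were at 0.141 and 0.327 of their replicate 3 level in replicate 2, and *Olig1* was at 0.826. Astrocyte, microglia and mural cell markers moved the other way, with a median log2 ratio of replicate 2 to 3 of −0.59, −1.44 and −1.06, against −0.28, −0.99 and −0.10 between shCtrl replicates 2 and 3, and their part in the lineage values was not tested.

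**Figure D3:**
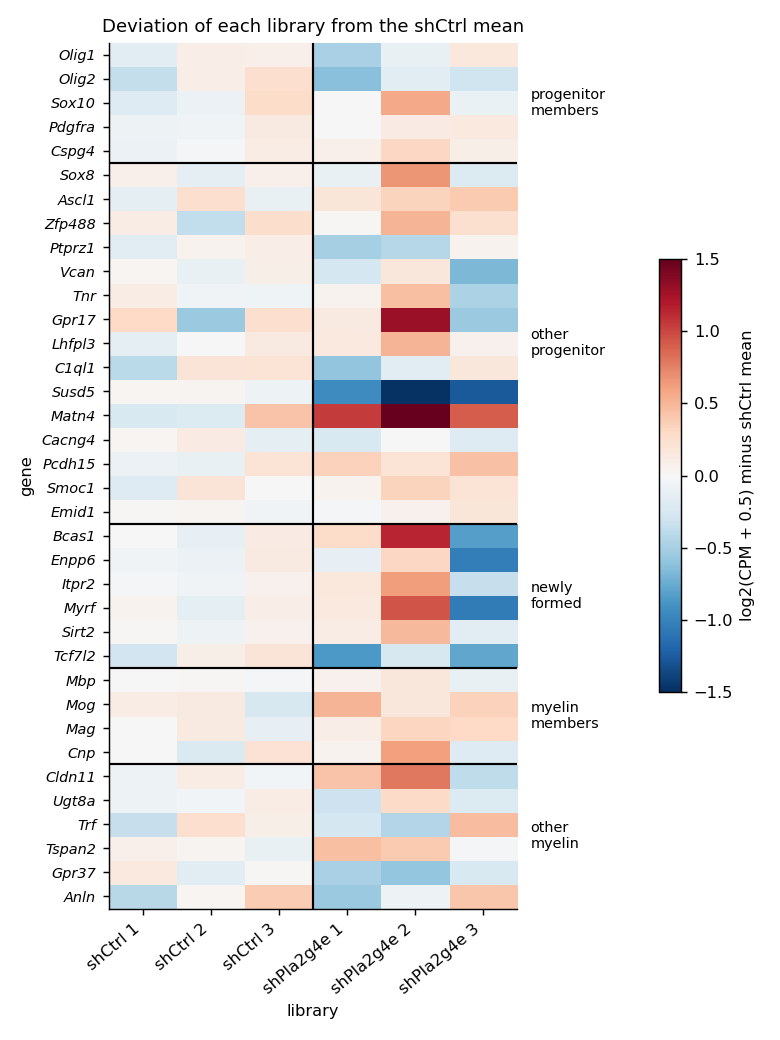
Log2 ratio of each library to the shCtrl mean (colour, scale at the right) for 36 lineage genes with a mean of at least 5 CPM (rows), by library (columns). *Bcas1*, *Myrf* and *Enpp6* are highest in sh*Pla2g4e* replicate 2 and lowest in sh*Pla2g4e* replicate 3. *Gpr17* and *Cnp* are also highest in sh*Pla2g4e* replicate 2, but in sh*Pla2g4e* replicate 3 they lie close to shCtrl replicate 2.

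Across the group, none of the 7 newly formed oligodendrocyte genes was a DEG by edgeR, 1 passed an unadjusted p of 0.05 (25.7% of all genes), and limma after voom and DESeq2 called none. That gene was *Tcf7l2*, an effector of Wnt signalling, with 8.88, 11.6 and 12.6 CPM under shCtrl and 5.77, 9.20 and 6.17 CPM under sh*Pla2g4e*. It was lower in all 3 numbers, with a log2 difference of −0.65 (standard error 0.19, adjusted p = 0.0364 by edgeR, 3.91e-04 with the block). *Bcas1* and *Sirt2*, a deacetylase of the myelin sheath, had log2 differences of 0.41 (adjusted p = 0.424) and 0.17 (adjusted p = 0.439), and both were below 0 without sh*Pla2g4e* replicate 2. The absence of calls depended on single libraries and on the filter. Without sh*Pla2g4e* replicate 3 *Bcas1* was up-regulated (0.77, adjusted p = 0.00207), and without replicate 2 *Tcf7l2* was down-regulated (−0.89, adjusted p = 0.00658). With no filter 1 gene of the list was up-regulated and 1 down-regulated, in a fit that called 2349 of 32161 genes.

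Of 17 other progenitor genes, all tested, 1 was up-regulated and 1 down-regulated, so that 2 were called beside 6.49% of all genes. The count was 1 without shCtrl replicate 1, shCtrl replicate 2 or sh*Pla2g4e* replicate 2, in fits that called 928, 695 and 931 genes. It was 3 without shCtrl replicate 3 (1291 of 21568 genes called) and 4 without sh*Pla2g4e* replicate 3 (1613 of 21608), 2 in each direction. With no filter it was 5, of which 4 were up-regulated, in a fit that called 2349 of 32161 genes. With the block it was 4, 2 in each direction, where 15.5% of all genes were called. The median log2 difference was 0.17, 12 were higher and 5 lower, and the groups did not overlap for 3, beside 30.0% of all genes. *Susd5*, which encodes a membrane protein, stood at 19.2, 19.3 and 17.8 CPM under shCtrl and at 9.49, 6.38 and 7.54 CPM under sh*Pla2g4e*. The groups were far apart, with a log2 difference of −1.26 (standard error 0.15, adjusted p = 4.08e-05 by edgeR), and it held no site of the sh2 seed in the 3′ UTR or coding sequence. *Matn4*, an extracellular matrix adaptor, rose from 3.05 ± 0.969 to 7.45 ± 1.95 CPM (SD, n = 3 each) by 1.28 on the log2 scale (standard error 0.25, adjusted p = 0.00237), and this call was lost without shCtrl replicate 1 (0.0138), shCtrl replicate 2 (0.019) or sh*Pla2g4e* replicate 2 (0.0152).

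The 5 genes of this list with the most reads did not pass the threshold, and the block changed the call of some. *Pcdh15*, a protocadherin enriched in progenitors, had 83.8 ± 10.5 and 105.0 ± 8.46 CPM (SD, n = 3 each), a log2 difference of 0.32 (adjusted p = 0.0358 by edgeR, 1.44e-04 with the block), and its groups did not overlap. Without shCtrl replicate 3 it was up-regulated (0.43, adjusted p = 0.00612). *Ptprz1*, a receptor phosphatase also made by astrocytes and radial glia, had 440, 512 and 528 CPM in shCtrl and 349, 366 and 509 CPM in sh*Pla2g4e* libraries. Like the sum of the astrocyte markers it was highest in replicate 3 within the sh*Pla2g4e* group, with a log2 difference of −0.27 (adjusted p = 0.166, 3.27e-04 with the block), and without that library it was down-regulated (−0.46, adjusted p = 0.00304). *Lhfpl3*, *Cacng4* and *Tnr* had log2 differences of 0.25, −0.14 and 0.06 (adjusted p = 0.174, 0.355 and 0.870). *Tnr*, the matrix protein tenascin-R, ran with the newly formed genes, with 350 CPM in sh*Pla2g4e* replicate 2 and 183 CPM in replicate 3, against 244 to 276 CPM in shCtrl libraries.

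Among 23 other myelin genes, 20 were tested, and *Opalin*, *Aspa* and *Klk6*, genes of mature oligodendrocytes, had at most 2 reads in any library. No gene of this list was a DEG by edgeR, against 5 at an unadjusted p of 0.05, a share close to the 25.7% of all genes, while limma after voom called 0 and DESeq2 called 1, *Gjc3*. Without sh*Pla2g4e* replicate 3, 5 of them were up-regulated, in a fit that called 1613 of 21608 genes. With no filter 4 were called, all up-regulated, where 2349 of 32161 genes were called. With the replicate block 4 were up-regulated and 1 was down-regulated, beside 15.5% of all genes called in either direction. The median log2 difference was 0.36, with 13 higher and 7 lower, and the groups did not overlap for 3, again beside 30.0% of all genes.

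*Cldn11*, the claudin of myelin tight junctions, had 15.7 ± 1.12 and 20.3 ± 7.83 CPM (SD, n = 3 each, log2 difference 0.37, adjusted p = 0.273 by edgeR), and *Ugt8a*, the galactosyltransferase of galactocerebroside synthesis, 13.6 ± 1.02 and 13 ± 3.16 CPM (−0.06, adjusted p = 0.874). *Tspan2*, a tetraspanin, had 46 ± 3.24 and 56.4 ± 9.51 CPM (0.30, adjusted p = 0.0994, 0.00535 with the block). Without sh*Pla2g4e* replicate 3 both *Cldn11* (0.63, adjusted p = 0.00261) and *Tspan2* (0.43, adjusted p = 0.00435) were up-regulated, while *Cldn11* stood at 0.095 without replicate 2. *Gpr37*, a G protein-coupled receptor, differed in the other direction, with 13.3 ± 1.49 and 9.76 ± 1.33 CPM, groups that did not overlap and a log2 difference of −0.45 (adjusted p = 0.0544, 0.00646 with the block).

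The 2 genes of this list with the smallest p were rare. *Gjc3*, a connexin of oligodendrocytes, stood at 0.970, 1.11 and 1.24 CPM under shCtrl and at 2.59, 5.73 and 1.71 CPM under sh*Pla2g4e*, a log2 difference of 1.6 (standard error 0.39, adjusted p = 0.0125 by edgeR, 1.90e-04 with the block). *Ermn*, a cytoskeletal protein of late oligodendrocytes, had 3, 2 and 11 reads in the shCtrl libraries and 24, 37 and 14 reads in the sh*Pla2g4e* libraries. The groups did not overlap for either gene, and the log2 difference of *Ermn* was 2.21 (standard error 0.59, adjusted p = 0.0217, 0.00435 with the block). *Gjc3* was up-regulated without sh*Pla2g4e* replicate 3 (1.9, adjusted p = 7.83e-04) and stood at 0.97 without replicate 2, and *Ermn* was up-regulated without shCtrl replicate 3 (3.19, adjusted p = 0.00766).

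**Figure D4:**
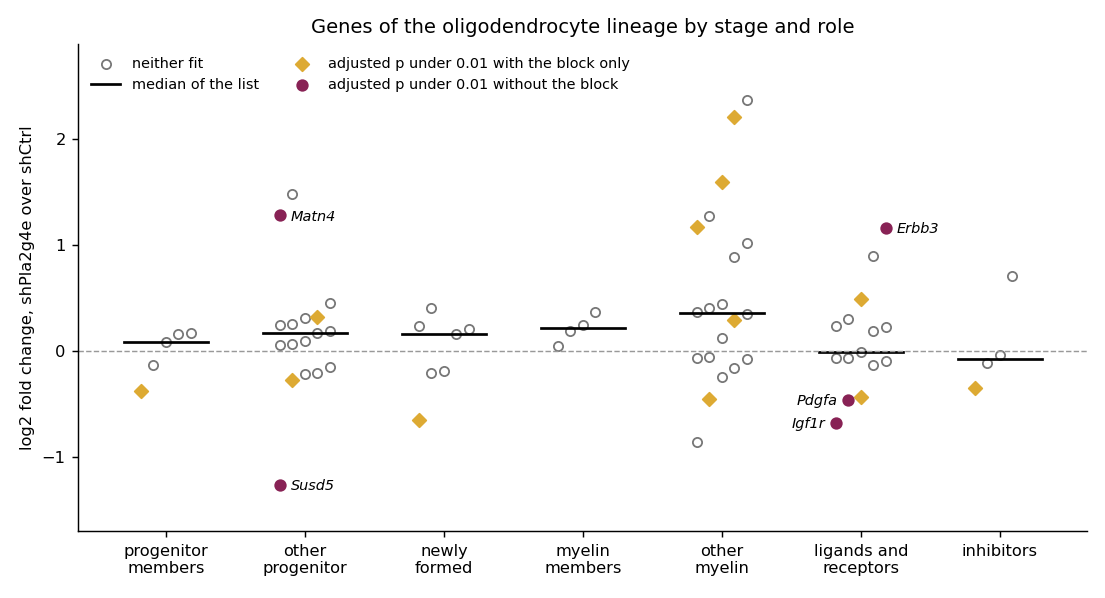
Log2 fold change of sh*Pla2g4e* over shCtrl (y axis) for each tested gene of the lineage lists (x axis), one point per gene, with the median of each list as a black line. Filled circles passed an adjusted p of 0.01 without the block, diamonds with the block alone and open circles in neither fit. No filled circle stands among the 9 member genes, and the median of the other myelin genes lies at 0.36.

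The signals that reach the lineage were covered by 15 ligand and receptor genes, all tested, of which 1 was up-regulated and 2 were down-regulated, 3 in all beside 6.49% of all genes. Without shCtrl replicate 1, shCtrl replicate 2 or sh*Pla2g4e* replicate 1, *Igf1r* alone of these was called, in fits that called 928, 695 and 854 genes. *Igf1r*, the receptor through which IGF1 acts on survival and myelin formation, fell from 111.3 ± 6.04 to 69.7 ± 0.521 CPM (SD, n = 3 each). Its sh*Pla2g4e* libraries were almost level, and the log2 difference was −0.67 (standard error 0.078, adjusted p = 3.28e-05 by edgeR). *Igf1r* is not confined to the lineage, and which cells of the culture made it was not tested. It held the letters GTGGCCA 3 times in its 3′ UTR, which spans 7267 bases in the longest coding transcript, and 4 times in its coding sequence. Also called in this list, *Pdgfa* (lower) and *Erbb3* (higher) each held them 1 time in the coding sequence and 0 times in the 3′ UTR. A part of these sites in the calls was not tested. Of the *Igf1r* 3′ UTR sites 2 are shown here with their flanks for comparison with that of *Cspg4*.
*Igf1r* 3′ UTR, at 68231225 to 68231231 of chromosome 7 (GRCm38, plus strand): tctgagaGTGGCCAcagagtg
*Igf1r* 3′ UTR, at 68232676 to 68232682: gcagtgtGTGGCCAcccagca

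*Pdgfa*, the ligand of the receptor that *Pdgfra* encodes, stood at 39.2, 41.7 and 35.6 CPM under shCtrl and at 29.0, 29.4 and 26.3 CPM under sh*Pla2g4e*. The groups did not overlap, and the log2 difference was −0.46 (standard error 0.097, adjusted p = 0.00500 by edgeR). The call was lost without shCtrl replicate 1 (0.0195), shCtrl replicate 2 (0.0426), sh*Pla2g4e* replicate 1 (0.0177) or sh*Pla2g4e* replicate 3 (0.0121), and with scaling by library size alone (0.0158), and 26.1% of its exon bases lie opposite to exons of another gene. *Erbb3*, a neuregulin receptor, rose from 1.44 ± 0.198 to 3.22 ± 0.350 CPM (SD, n = 3 each) by 1.17 on the log2 scale (standard error 0.27, adjusted p = 0.00841), and lost its call in 9 alternatives, with an adjusted p of up to 0.0415. With the block 2 of the 15 were up-regulated and 3 down-regulated, beside 15.5% of all genes, and the 2 added calls were growth factors. *Pdgfc*, another ligand of PDGF receptor alpha, differed in the other direction from *Pdgfa*, with 9.12, 8.30 and 7.95 CPM under shCtrl and 12.7, 10.2 and 12.9 CPM under sh*Pla2g4e*, groups that did not overlap and a log2 difference of 0.50 (adjusted p = 0.0362 by edgeR, 0.00468 with the block). *Fgf2*, a mitogen of progenitors, had 18.5 ± 2.36 and 13.7 ± 3.24 CPM (SD, n = 3 each) and a log2 difference of −0.44 (adjusted p = 0.0883, 0.00320 with the block).

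None of the 4 inhibitors of differentiation tested was a DEG by edgeR, 2 passed an unadjusted p of 0.05 (25.7% of all genes), and limma after voom and DESeq2 called none. *Id4*, which holds back the bHLH factors, stood at 40.4, 47.2 and 50.4 CPM under shCtrl and at 30.2, 30.0 and 48.8 CPM under sh*Pla2g4e*, with a log2 difference of −0.35 (adjusted p = 0.161, 0.00109 with the block). With no filter 1 gene of the list was down-regulated (2349 of 32161 genes called). Without sh*Pla2g4e* replicate 3 *Id4* was down-regulated (−0.61, adjusted p = 6.36e-04 by edgeR), the 1 call of this list in that fit (1613 of 21608 genes called). Like *Ptprz1* it was highest in sh*Pla2g4e* replicate 3 within its group, and it is also made by astrocytes. *Hes5*, a Notch target, had 2.57 ± 0.660 and 4.26 ± 2.22 CPM (log2 difference 0.71, adjusted p = 0.178, and 0.24 without sh*Pla2g4e* replicate 3), and *Id2* 64.5 ± 3.07 and 59.6 ± 1.7 CPM (−0.12, adjusted p = 0.410).

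Markers of other cells were read beside these values. Of 12 astrocyte markers 3 were down-regulated and none up-regulated, 8 and 1 with the block, beside 6.49% and 15.5% of all genes, with a median log2 difference of −0.39. The count was 1 without sh*Pla2g4e* replicate 1 or 2, in fits that called 854 of 21356 and 931 of 21475 genes. It was 7 without sh*Pla2g4e* replicate 3, where 1613 of 21608 genes were called. With no filter it was 6, of which 5 were down-regulated (2349 of 32161 genes called), and with the robust fit it was 1 (1563 of 21876). Some neural progenitors of the embryonic forebrain also make *Olig1* and *Olig2*. Of 10 markers of neural progenitors 1 was down-regulated and 2 with the block, again beside 6.49% and 15.5% of all genes. These were *Top2a* and *Mki67*, genes of dividing cells of any type, with log2 differences of −1.0 (adjusted p = 0.00613 by edgeR) and −1.13 (0.0148). The call of *Top2a* was lost in 8 alternatives. The count was 0 without shCtrl replicate 2 or 3 or sh*Pla2g4e* replicate 1 or 2, in fits that called 695, 1291, 854 and 931 genes. It was 2 without shCtrl replicate 1 or sh*Pla2g4e* replicate 3, where 928 and 1613 genes were called. The sums of the list were 291.5 to 349.1 CPM in shCtrl and 258.2 to 350.6 CPM in sh*Pla2g4e* libraries. The Schwann and crest cell markers, which could accompany *Sox10*, summed to 2.77 to 4.04 and 2.38 to 4.30 CPM, and 3 of the 6 had enough reads to be tested. Of the 12 neuron markers 3 were up-regulated and 4 down-regulated, and 4 and 5 with the block, beside 6.49% and 15.5% of all genes. Their groups did not overlap for 11, beside 30.0% of all genes. They went both ways. The log2 difference was −1.68 for the tubulin gene *Tubb3* and −1.31 for the glutamate transporter gene *Slc17a7*. It was 0.68 for the neurofilament gene *Nefm* (19.2% of its exon bases lie opposite to *Nefl*) and 0.91 for *Slc17a6*, another glutamate transporter gene. Without shCtrl replicate 2, 3 of the 12 were called, in a fit that called 695 of 21674 genes. The 12 microglia markers summed to 23.7 to 35.4 and 25.4 to 26.9 CPM and the 8 endothelial markers to 5.63 to 12.1 and 7.49 to 14.2 CPM, with *Cldn5* at 0. The part of these cells in the lineage values was not tested.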

How the data were processed

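The authors aligned the reads with STAR 2.7.0d, counted them on exons with featureCounts 1.6.0 and deposited raw counts per gene, 1 file for each of the 6 libraries. The methods name mm10 and GENCODE M18, while the file headers give GENCODE vM28, with GRCm39 coordinates. The recorded command holds no strand or pair option, so that each mate counted by itself and antisense reads were not kept apart. Symbols came from GENCODE vM21 (GRCm38) for 52081 of 55357 genes, and the sh2 sequence from the study's reagent list.

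Counts were scaled by TMM and tested with edgeR 4.0.16 (R 4.3.3; quasi-likelihood test, two-sided, Benjamini-Hochberg adjusted p of 0.01) over the 21876 genes that reached 6 reads in any library. The study used limma after voom (3.58.1 here), run as an alternative with DESeq2 1.42.0, other scalings and filters, a robust fit, a threshold of 0.05, the replicate block and leaving out each library. Over 10957 genes, deviations from group means correlated at 0.394, 0.180 and 0.461 between same-numbered libraries and at −0.398 to 0.114 between others, so that the numbers were treated as pairs. No pair of libraries of a group agreed within sampling noise.

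The members and lists were chosen with earlier results of these data known. Beyond the members, the genes named are the 3 with the smallest p per list and, for other progenitor and other myelin genes, the 5 with the highest mean CPM. Those named for other cells, for the contrast of replicates 2 and 3, and *Pdgfc* and *Fgf2*, were chosen after their values were seen. A few items that these rules cover are not reported here.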

Additional observations from a re-analysis of the deposited data

How the results depend on the processing

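Over all alternatives 167 of the recomputed values of the 9 members kept direction and side of the threshold, 6 passed the threshold anew and 7 turned sign. The number of progenitor genes called was 1 (*Olig2*) with no filter, with the replicate block and with the block without replicate 1 or 2 of both groups, and 1 (*Sox10*) with the block without replicate 3, where 1 myelin gene (*Cnp*) was called as well. The blocked fits that leave out a replicate number were chosen after seeing the data. DEGs numbered 2349 with no filter, 3395 with the replicate block (2391, 1785 and 3031 without replicate 1, 2 and 3 of both groups), 2813 at an adjusted p of 0.05, and 695 to 1613 with each library left out. The share down-regulated was 61.7%, against 43.3% with scaling by library size alone.

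With each library left out in turn, the log2 difference ranged from −0.30 to 0.023 for *Olig1*, −0.068 to 0.33 for *Sox10*, −0.019 to 0.12 for *Mbp*, −0.079 to 0.35 for *Cnp*, −0.19 to 0.27 for *Tnr*, −0.17 to 0.77 for *Bcas1*, −0.021 to 0.31 for *Sirt2* and −0.28 to 0.066 for *Ugt8a*. The sign turned at sh*Pla2g4e* replicate 1 for *Olig1*, at sh*Pla2g4e* replicate 2 for the next 6 genes, and for *Ugt8a* at shCtrl replicate 3 (0.0038) and at sh*Pla2g4e* replicates 1 and 3 (0.066 and 0.010). In the block without replicate 2 of both groups it turned for *Sox10* (−0.097), *Mbp* (−0.011), *Cnp* (−0.18), *Tnr* (−0.24), *Bcas1* (−0.31) and *Sirt2* (−0.064). *Ugt8a* was at 0.015 with library size alone, and at 0.010 and 0.049 in the block without replicates 1 and 3. The range was −0.53 to −0.24 for *Olig2* (weakest without shCtrl replicate 3 or sh*Pla2g4e* replicate 1), 0.053 to 0.16 for *Pdgfra* (highest without shCtrl replicate 3, lowest without shCtrl replicate 1 or 2), 0.080 to 0.22 for *Cspg4* (lowest without sh*Pla2g4e* replicate 2) and 0.25 to 0.46 for *Mog* (lowest without shCtrl replicate 3), with no sign turned and no call gained. The causes were not tested. *Mog* rested on 86 to 161 reads per library.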

Other observations

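The genes whose profile over the 6 libraries was most like the summed progenitor genes, by the root-mean-square difference of centred log2 CPM among 10949 genes, were *Utp11* (0.0321), *Rab34* (0.0378) and *Zfp36l2* (0.0402). For the summed myelin genes they were *Trip11* (0.0236), *Taf5l* (0.0305) and *Zfp729b* (0.034). All points share the same 6 libraries, and no gene of the lineage lists was among the 6.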
